A study of Homo sapiens with 13 samples.

Results

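The 10 loci LAMA4, SLC14A2, EFNB2, MSRB3, THRB, NLRP1, RASSF2, UTRN, EPB41L4A and HERC1 were examined for the place at which replication forks start and meet, out of 19974 protein-coding genes placed on chromosomes 1 to 22 and X. Each locus was the RefSeq span of the gene in GRCh38.p14 with 1 Mb either side. The loci were picked because, after each library had been divided by its own loss of amplitude, fork direction there differed from untreated cells in the resistant lines or at day 28. Those 2 contrasts therefore chose the members, and their values are given as a description with no test. After scaling, most zones where replication starts had a called zone within 100 kb in each of R5, R10 and the day 28 mean. In raw polarity most did not in R5 and the day 28 mean. At LAMA4, EFNB2, MSRB3, THRB and NLRP1 the scaled signal of 1 or 2 zones was below 50% of untreated in both resistant lines. Over the genome this held for 7.15% of 3091 measured zones. A zone was still called within 100 kb in R5 at EFNB2 and beside the THRB promoter, and in R10 at NLRP1. In both lines the point where forks met in the gene or within 200 kb of it was lost or moved at LAMA4, MSRB3, THRB, NLRP1 and RASSF2. Over the genome 22.3% of such points were lost or moved in R5 and 25.8% in R10, and the share in both at once was not computed. A zone of SLC14A2 was low in both lines as well but had no value in 1 day 28 library and is not in the counts. At MSRB3, NLRP1, RASSF2, UTRN and HERC1 the window that led the choice of the locus was also called at days 7 and 14. Over all windows 1.27% were called in that contrast, which is no matched background. The choice did not compare the libraries of days 7 and 14, but it shared the untreated libraries and the fit with this test. Without day 14 replicate 2 none of the 5 was called. The regions held 39 of the 3722 initiation zones of untreated cells and 181 of the 19312 windows of 100 kb with a value in all 13 libraries.

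PC9 is an established human lung adenocarcinoma line with an activating EGFR mutation, and osimertinib is an inhibitor of EGFR. Untreated PC9 gave 3 libraries, and parental PC9 in 500 nM osimertinib gave 2 at day 7, 2 at day 14 and 4 at day 28. The lines R5 and R10 gave 1 library each; each grew out of a single-cell clone, had become resistant and was kept in 500 nM osimertinib, so each value is that of 1 clone. Per the series' design text, cultures of untreated cells and of both lines were expanding at harvest, whereas the day 28 cultures did not proliferate. Day 28 replicates 3 and 4 are titled day 28 but labelled as treated for 7 days, and the title was followed. Counts of genes and windows called over the genome are also given without them. The day 28 mean at single loci, with its zones and falls, is given only with all 4 libraries. Whether replicates came from separate cultures is not stated, so the spread behind each p-value may be technical.

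Replication starts at many sites of a chromosome, and in mammals the sites cluster in initiation zones from which forks leave to the left and to the right. Where 2 converging forks meet, replication of that stretch terminates. Cells have more licensed origins than they use, and which zones fire differs between cell types; zones often lie beside active genes, and long stretches with few zones are crossed by single forks. TrAEL-seq tags free 3' ends of DNA, most of which in dividing cells lie at forks, so the balance of its reads between the strands follows fork direction. Polarity is that balance in percent, from -100 to 100. It was read as positive where forks ran mostly to the right, which makes a rise along the chromosome an initiation zone and a fall a termination zone; that reading was made after the data were seen, and the opposite sign would exchange the 2 kinds of zone. Rise and fall are given in points, that is percentage points of polarity.

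Polarity was weaker in all treated and resistant libraries, so each library was divided by its amplitude, the slope of its polarity on the untreated mean. Amplitude was 0.970, 1.03 and 0.807 in the untreated libraries, 0.545 and 0.345 at day 7, 0.368 and 0.668 at day 14, 0.272, 0.261, 0.452 and 0.333 at day 28, 0.285 in R5 and 0.641 in R10. Division magnifies noise with signal: a value of R5 or of day 28 replicate 2 was multiplied by 3.51 or 3.84, and scaled values can pass 100 points. The sign of polarity is the same before and after scaling. In bulk DNA, fewer cells that replicate in the untreated pattern and a weaker pattern in each cell cannot be told apart. The depth behind a value is unknown, since no read counts were used here. The day 7 libraries had a value in 61.4% and 92.0% of the 20 kb windows and the other 11 libraries in 81.8% to 93.4%.

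After scaling, most initiation zones of these regions had a called zone within 100 kb in each of R5, R10 and the day 28 mean. The scaled search called 6540 zones in R5, 4096 in R10 and 4854 in the day 28 mean, against 3722 in the untreated mean. A profile with more zones more often has one within 100 kb, so a kept zone need not be the same zone. Zones were rises of at least 40 points from below to above 0 in the 80 kb running mean of scaled polarity, and a zone was lost or moved when the other profile had none within 100 kb. Of the 39 zones, 5 were lost or moved in R5, 9 in R10 and 10 in the day 28 mean, beside 17.9%, 17.6% and 24.2% of all untreated zones. As shares these were 12.8%, 23.1% and 25.6%, near the shares over the genome, and single untreated libraries lost or moved 13.7% to 14.6% of the zones of the other 2. The regions also held 4 gained zones in R5 (of 52), 3 in R10 (of 38) and 8 in the day 28 mean (of 39), with no untreated zone within 300 kb; as shares these were 7.69%, 7.89% and 20.5%, and over the genome 29.2%, 13.4% and 21.9% of zones were gained. The counts at the loci were small, and with a 120 kb running mean the R10 share of gained zones was 9.68% beside 10.2% of all zones. In raw polarity, which keeps the loss of amplitude, 26 of 38 zones at the loci were lost or moved in R5, 10 in R10 and 26 in the day 28 mean. The loci were picked on R5, R10 and day 28, so nothing is read from these shares.

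A rise was measured as the mean of 3 windows at the right end of a zone minus the mean of 3 at its left end. A zone was counted where all untreated, day 28 and resistant libraries and at least 3 of the 4 libraries of days 7 and 14 had a value. Of the 37 such zones of the regions, 6 had a scaled rise below 50% of untreated in both R5 and R10, where 7.15% of 3091 zones did; 5 of the 6 were below 50% in the day 28 mean too, where 4.08% of zones were below it in all 3. The loci were picked on R5, R10 and day 28, so an excess there comes with the choice and nothing is read from it. LAMA4, EFNB2, MSRB3 and NLRP1 had 1 of these each and THRB had 2. The zone search still called a zone within 100 kb of that of EFNB2 and that of THRB at 417 kb, in R5 and the day 28 mean. It did so for that of NLRP1 in R10 and for that of THRB at -208 kb in the day 28 mean. A zone of SLC14A2 at 650 kb was below 50% in both lines too, but day 28 replicate 1 had no value there. All 6 were also below 50% in the mean of days 7 and 14, as were 27.2% of all measured zones and 139 of the 221 zones reduced in R5 and R10 (62.9%); each ratio has the same untreated libraries below the line. The other 31 measured zones included the tall ones on either flank, such as the zone at -950 kb from the left end of THRB, with a scaled rise of 174 points untreated, 261 in R5 and 163 in R10.

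**Figure D1:**
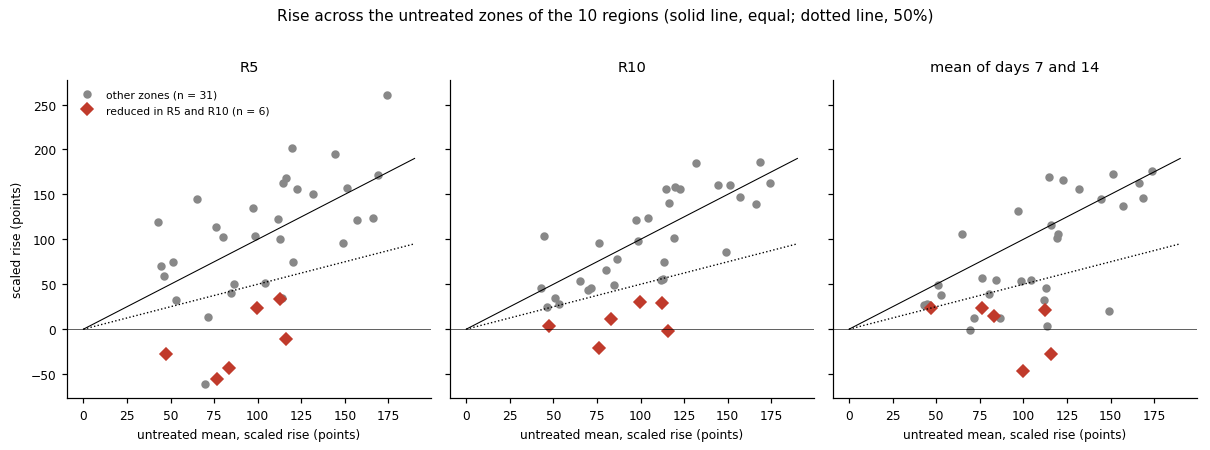
Scaled rise of polarity across the 37 measured zones of the 10 regions (points), untreated mean on the x axis, and R5, R10 or the mean of days 7 and 14 on the y axis. Diamonds mark the 6 zones below 50% of untreated in R5 and R10, which were picked by those values; in the right-hand panel, which was not used to pick them, they lie on or under the dotted line too.

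**Figure D2:**
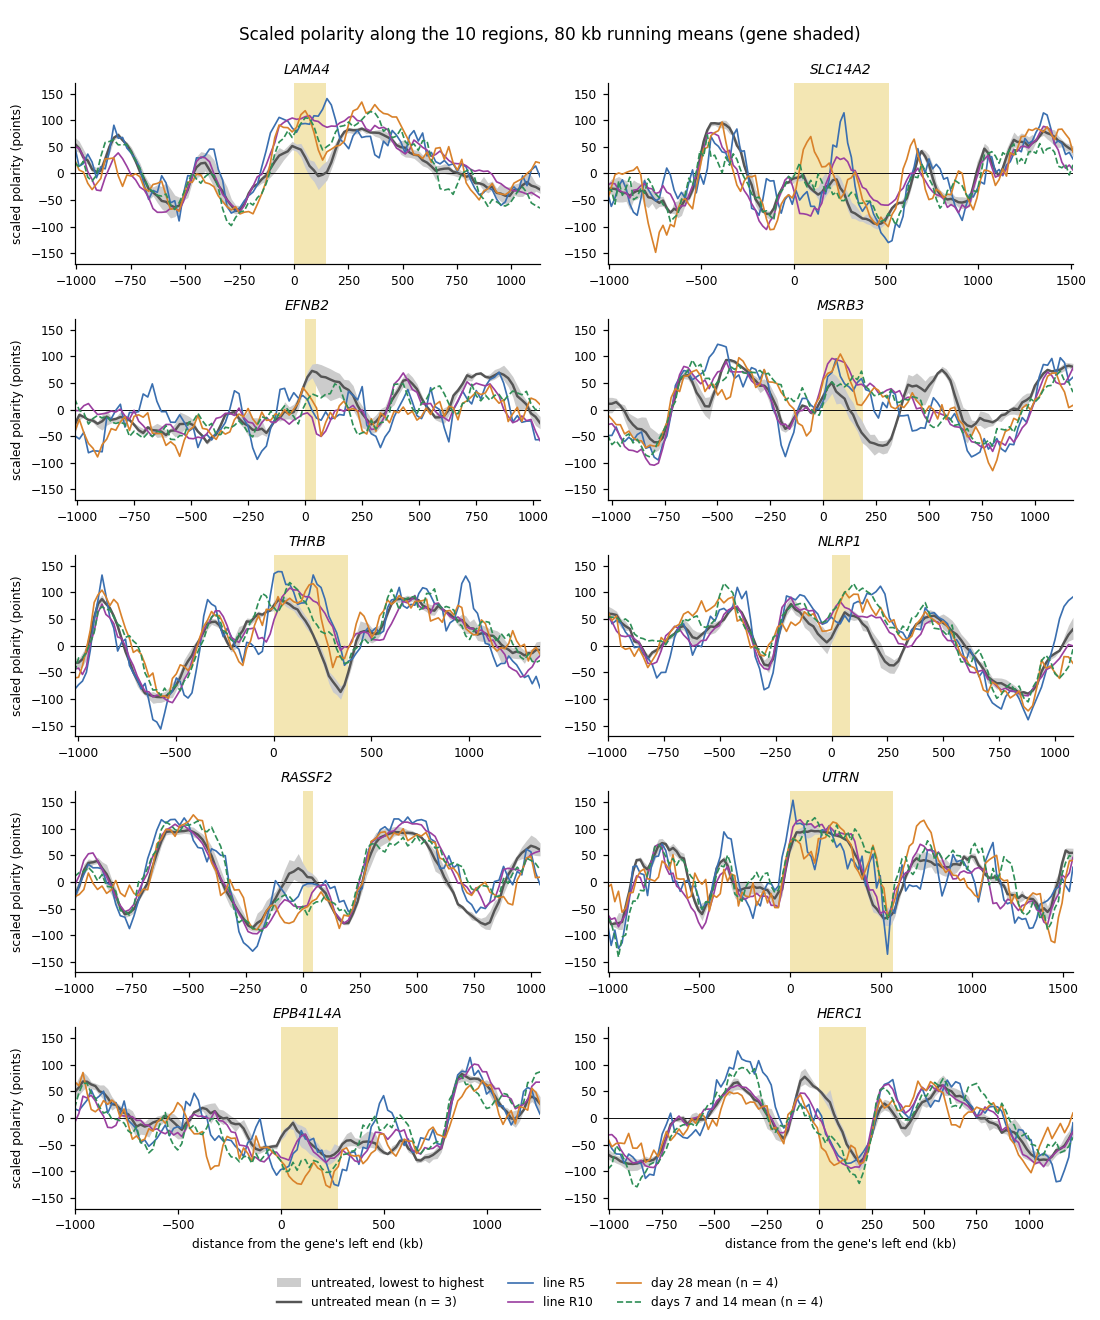
Scaled polarity (points) along each region as an 80 kb running mean, by distance from the left end of the gene (kb); grey is the untreated mean with the range of its 3 libraries, lines are R5, R10, the day 28 mean and the mean of days 7 and 14, and the shaded block is the gene. The curves run together over most of each region and part at single valleys or peaks, such as the untreated valley right of NLRP1 and the one right of MSRB3.

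The contrasts that chose the loci did not compare the libraries of days 7 and 14, and these gave the test. They share the untreated libraries with those contrasts, so part of any difference from untreated is common to all. All 13 libraries were in 1 fit, so the choice and the test also share much of the estimate of spread. A window picked with a small spread or extreme untreated values can therefore pass more easily at days 7 and 14. Calls there are not independent of the choice, and shares over all windows are no matched background. With equal weights limma called 0 of 19312 windows in the resistant lines, at day 28 and at days 7 and 14, while 1.29%, 8.24% and 5.51% had an unadjusted p under 0.05. In simulated data this equal-weights fit recovered 0, 0 and 1 of 100 changes of 60 points in these 3 contrasts. Of 100 changes of 100 points it recovered 0, 37 and 42, so its lack of calls does not show that windows were unchanged. With array weights, limma's estimate of the precision of each library, 1.87% of windows were called in the resistant lines, 0.264% at day 28 and 1.27% at days 7 and 14 (adjusted p under 0.05, Benjamini-Hochberg over all 19312). The weights ran from 9.56 in untreated replicate 1 to 0.156 in day 28 replicate 1, and day 28 replicate 3, with its conflicting label, had 1.66 where the other day 28 libraries had 0.156 to 0.409. In a group of 2 libraries both got the same weight, such as 1.55 for R5 and for R10. There the weights do not tell the precision of one library from that of the other. In the regions of the members 18 of 181 windows were called in the resistant lines (9 members) and 8 at day 28 (7 members), which is what the loci were picked for. Without day 28 replicates 3 and 4 the day 28 fit called 0 windows of the genome.

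At days 7 and 14, 10 of the 181 windows were called, in LAMA4, MSRB3, NLRP1, RASSF2, UTRN, EPB41L4A and HERC1. The window with the lowest adjusted p in the contrasts that chose it is called the lead window of a locus below, and 5 of the 10 lead windows passed at days 7 and 14, those of MSRB3, NLRP1, RASSF2, UTRN and HERC1. The lead windows of LAMA4, SLC14A2, EFNB2, THRB and EPB41L4A did not pass. Day 14 replicate 2 decided these calls: without it 0 of the 10 lead windows and 17 windows of the genome were called. Without day 7 replicate 1 or 2, 2 lead windows were called, and without day 14 replicate 1, 3 were. Day 7 alone gave 2 windows of the genome (0.0104%) and day 14 alone 4 (0.0207%). The 4 libraries of days 7 and 14 lay wholly above or below the 3 untreated ones in 7 lead windows, where 13.9% of all windows did. The same untreated libraries helped to pick these windows, so that share is no matched background.

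Signs gave the same comparison with no scaling and no weights; the count was added after the data were seen. In 4 of the 10 lead windows, those of MSRB3, NLRP1, RASSF2 and UTRN, the 3 untreated libraries had one sign and the 4 libraries of days 7 and 14 the other, as did 1.16% of all windows. The lead windows were picked for their difference from these same untreated libraries. In 8 of the 10 lead windows the untreated libraries had 1 sign, so the share over all windows is no matched background and nothing is read from it. In the lead window of NLRP1 the 10 treated and resistant libraries all had the opposite sign to the 3 untreated ones, as in 0.135% of all windows; 6 of those 10 libraries chose the window, so nothing is read from that share.

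**Figure D3:**
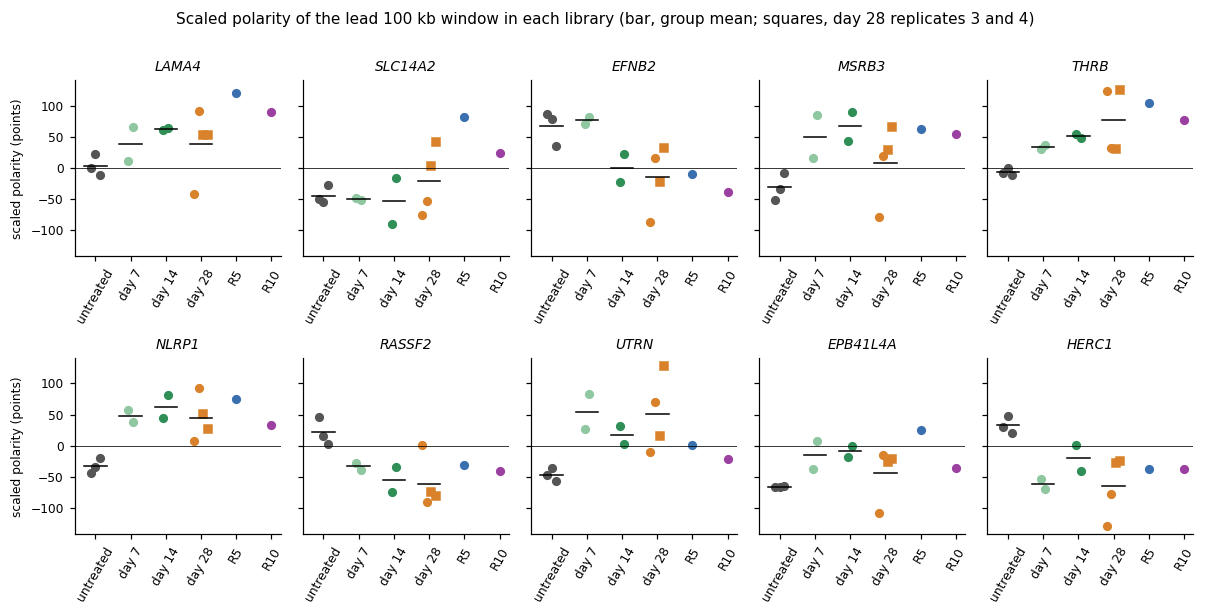
Scaled polarity (points) of the lead 100 kb window of each locus in the 13 libraries; points are libraries, squares are day 28 replicates 3 and 4, and bars are group means. R5, R10 and day 28, set against the untreated libraries, chose the windows. Days 7 and 14 were not compared in that choice but were in the same fit. Their 4 points lie clear of the untreated points at MSRB3, THRB, NLRP1, RASSF2, UTRN, EPB41L4A and HERC1.

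At NLRP1, which encodes a sensor protein of the inflammasome (chromosome 17, 5501396 to 5584509), polarity in a valley of leftward forks to the right of the gene was negative in untreated cells and above 0 in the 10 other libraries, though near balance in day 28 replicates 1 and 4. The lead window (chromosome 17, 5700001 to 5800000), which holds no protein-coding gene, had raw polarities of -42.9%, -35.7% and -16.2% in untreated cells. They were 31.4% and 12.9% at day 7, 16.3% and 54.4% at day 14, 1.9%, 24.03%, 22.6% and 8.9% at day 28, 21.1% in R5 and 21.2% in R10. All 3 untreated libraries were negative and the other 10 positive, so the groups did not overlap. Scaled polarity went from -32.9 ± 12.2 (SD, n = 3) to 55.2 ± 19.4 (SD, n = 4) at days 7 and 14, a weighted difference of 98.2 ± 16.4 points (SE), limma adjusted p = 0.00198. The call was lost without day 14 replicate 2 and held without each of the other 12 libraries.

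The untreated valley at NLRP1 ended in an initiation zone at 329 kb (chromosome 17, position 5830864), between genes and 238 kb from WSCD1, whose rise was gone in most libraries. The raw rise was 111.01, 98.4 and 72.3 points untreated, -1.4 and -20.3 at day 7 and -14.2 and -58.1 at day 14. At day 28 it was 25.3, -14.6, -2.2 and -0.78, in R5 6.6 and in R10 19.7 points. In R10 the zone still counts as kept, with a zone called 29.1 kb away, and in R5 and the day 28 mean it counts as lost. After scaling, day 28 replicate 1 (93.1 points) lay within the untreated range of 89.5 to 114.4. The zone at 1031 kb, in PITPNM3, still had a rise in these libraries, with 103.8, 141.995 and 91.8 points untreated, 27.9, 37.5, 38.8 and 40.9 at day 28, 57.5 in R5 and 65.01 in R10. There it was 0.63 and 36.2 points at day 7 and 70.9 and 71.3 at day 14, so that only day 7 replicate 1 had next to no rise at either zone. The untreated fall at 199 kb, where forks from both sides meet, had no counterpart within 100 kb in R5, R10, the day 28 mean or the mean of days 7 and 14. Over the genome such falls were lost or moved in 22.3%, 25.8%, 31.9% and 34.6% of cases.

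MSRB3, which encodes a methionine sulfoxide reductase (chromosome 12, 65278683 to 65466907), had 6 of its 20 tested windows called in the resistant lines, more than any other of the loci, over a stretch reaching past HMGA2, a chromatin protein gene to its right. The lead window (chromosome 12, 65400001 to 65500000), at the right end of the gene, had raw polarities of -50.4%, -35.9% and -6.9% untreated, 8.6% and 29.2% at day 7 and 15.8% and 60.4% at day 14. It was -21.5%, 4.9%, 13.001% and 21.6% at day 28, 17.9% in R5 and 34.9% in R10. All 3 untreated libraries were leftward and 9 of the other 10 rightward, the exception being day 28 replicate 1. Scaled polarity was -31.7 ± 21.9 (SD, n = 3) untreated and 58.5 ± 35.4 (SD, n = 4) at days 7 and 14, and the difference of 105.6 ± 18.2 points (SE) passed (limma adjusted p = 0.00295).

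The window over HMGA2 (chromosome 12, 65800001 to 65900000) changed the opposite way. Raw polarity there was 74.5%, 67.2% and 48.5% untreated, -2.1% and -1.1% at day 7 and -3.4% and -34.7% at day 14. It was -2.3%, -2.4%, -1.9% and 10.5% at day 28, -0.66% in R5 and -10.7% in R10. All 3 untreated libraries were above the other 10, of which 9 were below 0. The weighted difference at days 7 and 14 was -95.2 ± 15.8 points (SE; limma adjusted p = 0.00198). Without day 14 replicate 2 both windows lost their call. Between them lay the untreated zone at 365 kb (chromosome 12, position 65643739), 177 kb from MSRB3, with a raw rise of 148.99, 112.4 and 69.02 points untreated. Day 7 replicate 1 had no value there, and the rise was 41.2 in day 7 replicate 2, -52.8 and -38.1 at day 14, 33.8, -13.6, -26.6 and 9.6 at day 28, -3.1 in R5 and -1.4 in R10. In every treated or resistant library with a value the raw rise was below the untreated range, and in 6 of 9 it was below 0. After scaling, day 7 replicate 2 (119.5 points) and day 28 replicate 1 (124.5 points) lay within the untreated range of 85.5 to 153.5. At the tallest other zone of the region, at -717 kb in RASSF3, rises were 128.3, 109.5 and 126.7 untreated, 42.9 in R5 and 118.6 in R10. The zones at -111 kb and -33.1 kb, beside and in LEMD3, were kept in R5, R10 and the day 28 mean. Near IRAK3, at 981 to 986 kb, R5, R10 and the day 28 mean each had a zone called as gained, but untreated cells already had a raw rise there. Across the day 28 zone it was 53.9, 42.1 and 53.7 points untreated. Across the R5 zone it was 71.0, 47.4 and 58.2 untreated and 27.9 in R5. Across the R10 zone it was 62.9, 74.2 and 66.3 untreated and 89.4 in R10. The search called no zone within 300 kb in the untreated mean, and why was not tested.

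**Figure D4:**
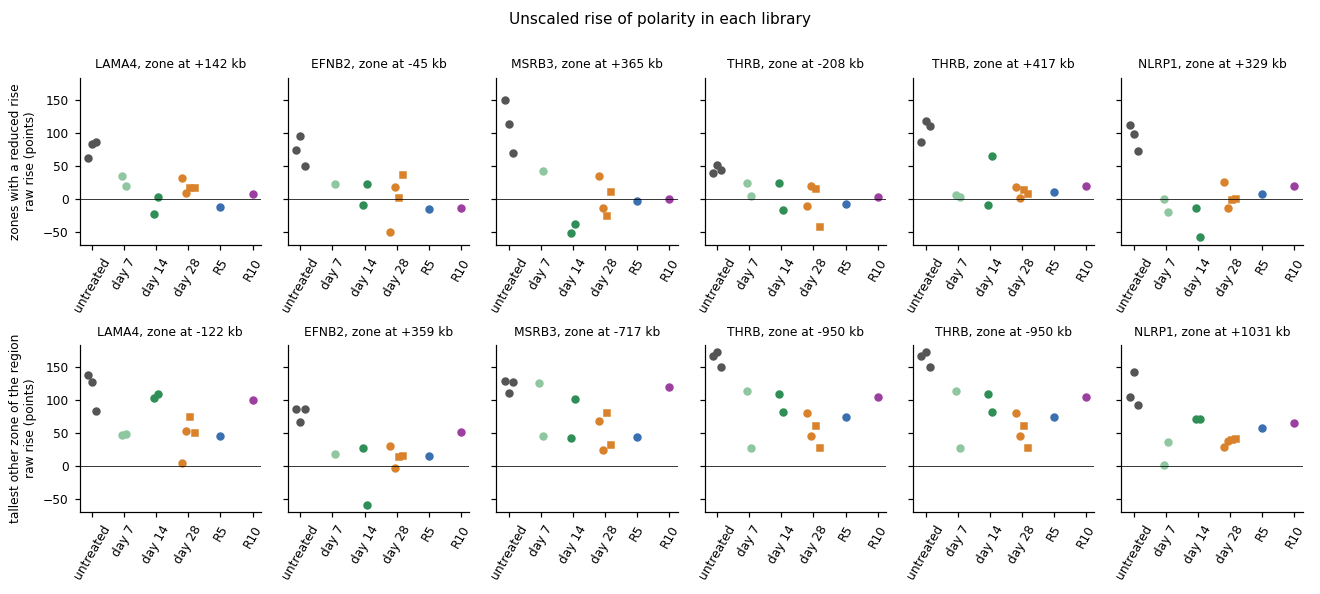
Unscaled rise of polarity (points) in each library across the 6 zones with a reduced rise (top) and across the zone of the same region with the tallest untreated rise among the others (bottom; THRB has 1 such zone, drawn under both); squares are day 28 replicates 3 and 4. R5 and R10 chose the top zones; their top points lie near 0, and the bottom points show what rise the same library kept nearby, which was small or absent in several libraries at EFNB2.

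THRB encodes the thyroid hormone receptor beta, a nuclear receptor (chromosome 3, 24117153 to 24495708). In untreated cells rightward forks entered the gene from the left and met leftward forks inside it, and the leftward forks came from a zone at 417 kb (chromosome 3, position 24534166), 38.5 kb to the right of the gene and upstream of its promoter, since THRB is read to the left. The promoter beside that zone is shown for its place; the 250 bases before the RefSeq start (chr3:24495709-24495958, GRCh38.p14, minus strand, 5′ to 3′) hold 21 CG pairs, in capitals, where the median promoter has 11 and 30.2% of 35116 have at least as many.
THRB: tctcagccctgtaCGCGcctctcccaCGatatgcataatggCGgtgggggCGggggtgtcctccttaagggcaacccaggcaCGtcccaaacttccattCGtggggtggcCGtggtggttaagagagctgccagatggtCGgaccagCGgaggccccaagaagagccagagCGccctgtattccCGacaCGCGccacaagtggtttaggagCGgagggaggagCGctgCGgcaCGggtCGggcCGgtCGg

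Across the zone next to the THRB promoter the raw rise was 85.4, 118.1 and 109.3 points untreated, 5.1 and 2.4 at day 7 and -9.8 and 64.002 at day 14. It was 17.9, 1.3, 12.46 and 6.9 at day 28, 9.7 in R5 and 18.7 in R10. All 10 lay below the untreated range, though day 14 replicate 2, with 95.7 points after scaling, lay within the scaled untreated range of 88.0 to 135.3. The zone counts as kept in R5 and the day 28 mean and as lost in R10. The zone at -950 kb, beside UBE2E2, had 165.9, 171.7 and 149.2 untreated, 79.4, 44.8, 60.1 and 27.3 at day 28, 74.3 in R5 and 104.6 in R10, so a rise was still measured there in the same libraries. A smaller zone at -208 kb, in NKIRAS1, went from 38.2, 50.97 and 42.7 points untreated to -7.7 in R5 and 2.3 in R10, with 23.4 and 3.8 at day 7, 24.2 and -17.4 at day 14 and -10.8, 18.3, 15.2 and -43.4 at day 28. After scaling, day 14 replicate 1 (65.9 points) and day 28 replicate 2 (70.4 points) were above the untreated range of 39.4 to 52.9 and day 7 replicate 1 (42.9 points) was within it.

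Inside THRB the point where forks met lay further right: the untreated fall at 225 kb was displaced by 115 kb in R5, 107 kb in R10, 54.2 kb in the day 28 mean and 92.5 kb in the mean of days 7 and 14. In R5 and R10 it counts as moved, with the 22.3% and 25.8% of falls over the genome that were lost or moved. The lead window of THRB (chromosome 3, 24300001 to 24400000) had raw polarities of -7.7%, 0.26% and -9.8% untreated, 16.1% and 12.6% at day 7 and 20.1% and 32.4% at day 14. It was 33.3%, 8.1%, 13.3% and 41.5% at day 28, 29.8% in R5 and 49.6% in R10. The other 10 libraries were all positive and above the untreated ones. Even so, the difference of 49.4 ± 16.1 points (SE) at days 7 and 14 did not pass (limma adjusted p = 0.112). In the window next to the promoter (chromosome 3, 24400001 to 24500000) polarity was -74.1%, -70.2% and -76.8% untreated, 2.6% in R5 and 2.9% in R10, and at days 7 and 14 the difference of 57.3 ± 17.8 points (SE) also missed the threshold (limma adjusted p = 0.0943).

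LAMA4, which encodes a laminin chain of basement membranes (chromosome 6, 112107931 to 112254985), had an initiation zone over its promoter in untreated cells (chromosome 6, 112220001 to 112360001). The zone centre (position 112249572) was 4.995 kb inside the RefSeq start of the gene. The zone was 140 kb wide and the windows 20 kb, so that distance is finer than the data resolve. LAMA4 is read to the left. Its promoter (chr6:112254568-112254817, GRCh38.p14, minus strand, 5′ to 3′) is shown because it lies inside the zone. It holds 5 CG pairs, in capitals, and 65.7% of promoters hold at least as many.
LAMA4: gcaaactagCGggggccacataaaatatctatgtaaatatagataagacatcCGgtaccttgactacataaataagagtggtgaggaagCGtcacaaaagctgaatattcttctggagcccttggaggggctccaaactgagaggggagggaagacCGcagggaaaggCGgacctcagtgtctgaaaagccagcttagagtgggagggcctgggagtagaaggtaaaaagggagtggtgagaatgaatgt

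The rise at this zone was 61.4, 82.95 and 85.8 points untreated, raw, 34.8 and 18.6 at day 7 and -22.95 and 3.02 at day 14. At day 28 it was 31.4, 8.3, 16.1 and 16.04, in R5 -12.3 and in R10 7.2 points, and all 10 raw values lay below the untreated range. After scaling, day 28 replicate 1 (115.5 points) was above the highest untreated library (106.2) and day 7 replicate 1 (63.8) was within the untreated range, which began at 63.2. The day 28 mean was 0.694 of untreated after scaling, above the 0.5 that counted as reduced. The zone at -122 kb, near CCN6, had 137.8, 126.7 and 83.2 untreated, 45.9 and 47.3 at day 7, 103.2 and 108.5 at day 14, 44.4 in R5 and 99.7 in R10. The untreated fall at 103 kb, inside the gene, had no counterpart within 100 kb in R5, R10, the day 28 mean or the mean of days 7 and 14.

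In the window over the body of LAMA4 (chromosome 6, 112100001 to 112200000) raw polarity was 45.5%, 38.3% and 13.2% untreated, 41.2% and 42.9% at day 7 and 37.8% and 72.3% at day 14. It was 29.3%, 38.8%, 42.2% and 27.3% at day 28, 27.2% in R5 and 66.3% in R10. Raw values overlapped and the sign was the same in all 13 libraries, so the difference appears only after scaling: 33.4 ± 15.6 (SD, n = 3) untreated against 102.8 ± 20.3 (SD, n = 4) at days 7 and 14. That difference of 66.04 ± 14.9 points (SE) passed (limma adjusted p = 0.0211) and was lost without day 7 replicate 2, day 14 replicate 1 or day 14 replicate 2. The lead window over the promoter (chromosome 6, 112200001 to 112300000), with -1.1%, 22.2% and -9.3% untreated, 34.3% in R5 and 57.7% in R10, was at 5.6% and 22.8% at day 7 and 22.1% and 42.4% at day 14. At day 28 it was at -11.7%, 23.7%, 23.6% and 17.5%, with replicate 1 below all 3 untreated libraries. The difference of the lead window at days 7 and 14, 49.1 ± 16.9 points (SE), did not pass (limma adjusted p = 0.129).

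EFNB2 encodes ephrin-B2, a membrane ligand of Eph receptors (chromosome 13, 106489745 to 106535662). It lay right of a zone at -45.1 kb (chromosome 13, position 106444671), from which rightward forks crossed the gene in untreated cells. The raw rise there was 74.02, 94.3 and 49.7 points untreated, 21.6 in day 7 replicate 2 and -9.8 and 22.8 at day 14; day 7 replicate 1 had no value. It was -50.6, 18.1, 0.22 and 35.2 at day 28, -15.9 in R5 and -13.6 in R10, each below the raw untreated range. The zone counts as kept in R5 and the day 28 mean and as moved in R10. Raw rises fall with amplitude: after scaling, day 28 replicate 4 (105.7 points) was above the highest untreated library (91.3), and day 7 replicate 2 (62.5) and day 28 replicate 2 (69.6) lay within the untreated range, which began at 61.6. The tallest other zone, at 359 kb, was weak in many of these libraries as well, with 85.98, 66.3 and 86.01 points untreated, 26.6 and -59.1 at day 14, 29.2, -4.2, 13.1 and 15.3 at day 28, 14.3 in R5 and 50.4 in R10. In the lead window (chromosome 13, 106500001 to 106600000) raw polarity was 83.9%, 80.3% and 28.2% untreated, 38.6% and 28.2% at day 7 and -8.4% and 14.3% at day 14, and -23.5%, 4.2%, -10.5% and 10.6% at day 28, -3.02% in R5 and -25.4% in R10. At day 7 both libraries were still rightward; at day 14 and later they were near 0 or leftward. The difference of -37.5 ± 19.4 points (SE) at days 7 and 14 together did not pass (limma adjusted p = 0.334).

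HERC1 encodes a large ubiquitin ligase (chromosome 15, 63608618 to 63833948). Here the zones on either side were kept in R5, R10 and the day 28 mean, the nearest at -135 kb and 272 kb, and the point where their forks met lay further left. The untreated fall at 79.1 kb was displaced by -65.4 kb in R5, -82.9 kb in R10, -117 kb in the day 28 mean and -123 kb in the mean of days 7 and 14. At a limit of 100 kb it counts as kept in R5 and R10 and as moved in the 2 means. Kept falls over the genome were displaced by a median of 29.6 kb in R5 and 20.2 kb in R10. Over the left end of the gene, in the lead window (chromosome 15, 63600001 to 63700000), raw polarity was 29.8%, 49.97% and 16.4% untreated, -29.3% and -24.3% at day 7 and 0.07% and -27.3% at day 14. It was -35.3%, -20.4%, -13.02% and -8.5% at day 28, -10.9% in R5 and -23.7% in R10. Untreated forks ran rightward there, and 9 of the 10 other libraries were leftward. Scaled polarity went from 33.2 ± 14.2 (SD, n = 3) to -41.2 ± 30.1 (SD, n = 4) at days 7 and 14, by -77.2 ± 16.6 points (SE; limma adjusted p = 0.0159). The call was lost without day 7 replicate 1, day 7 replicate 2 or day 14 replicate 2. The rise at the left zone was lower than untreated in several libraries: 88.6, 122.2 and 106.2 points untreated, 27.1 and 33.1 at day 7, -21.5 and -47.5 at day 14, 56.3, 11.1, 29.8 and -21.1 at day 28, 9.9 in R5 and 48.1 in R10. At the right zone it was 99.3, 110.1 and 108.9 untreated, 100.4 and 62.04 at day 7, 85.8 and 54.1 at day 14, 17.7, 3.6, 69.4 and 13.9 at day 28, 46.5 in R5 and 99.8 in R10.

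UTRN encodes utrophin, a relative of dystrophin (chromosome 6, 144285335 to 144853034). A zone at -37.7 kb, just left of the gene, and one at 626 kb, to its right, were kept in R5, R10 and the day 28 mean. The fall between them, at 412 kb within the gene, was displaced by -0.24 kb in R5 and 9.39 kb in R10, and by 81.7 kb in the day 28 mean and 84.8 kb in the mean of days 7 and 14. At a limit of 100 kb it counts as kept in each of these. In the 2 means, kept falls over the genome were displaced by a median of 29.0 and 28.0 kb. Raw polarity in the lead window (chromosome 6, 144700001 to 144800000) was -45.8%, -37.2% and -45.7% untreated, 14.3% and 28.7% at day 7 and 11.5% and 1.98% at day 14. It was -2.7%, 18.3%, 6.98% and 42.5% at day 28, 0.24% in R5 and -14.3% in R10. All 4 libraries of days 7 and 14 were positive and all 3 untreated ones negative. The scaled difference was 74.9 ± 17.8 points (SE; limma adjusted p = 0.0284), a call lost without any one of the 4 libraries of days 7 and 14. In the resistant lines, which were part of the choice of loci, this window was not called; the difference of drug-treated parental cells from the resistant lines was not tested. Only 8 of the 27 windows of the region had a value in all libraries.

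RASSF2 encodes a Ras-association domain protein (chromosome 20, 4780023 to 4823608). Untreated cells had a zone at -78.7 kb, in PRNP, with rightward forks from there into the left end of RASSF2, and 9 of the 10 other libraries were leftward in this stretch. In the lead window (chromosome 20, 4700001 to 4800000), over PRNP, PRND and the left end of RASSF2, raw polarity was 44.5%, 16.2% and 1.4% untreated, -15.3% and -13.5% at day 7 and -27.6% and -23.04% at day 14. It was 0.17%, -23.8%, -33.5% and -26.8% at day 28, -9.01% in R5 and -25.9% in R10. Scaled polarity went from 21.1 ± 22.6 (SD, n = 3) to -44.2 ± 21.1 (SD, n = 4) at days 7 and 14, by -69.5 ± 17.6 points (SE; limma adjusted p = 0.0384). The call was lost when any one of untreated replicates 1 and 2 or the 4 libraries of days 7 and 14 was left out. The raw rise at the zone was 136.8, 114.8 and 66.7 points untreated, 32.5 and 34.8 at day 7, -27.1 and 28.7 at day 14, 15.5, -19.97, 10.7 and 30.2 at day 28, 34.9 in R5 and 34.9 in R10. After scaling it was 1.099 of untreated in R5 and 0.487 in R10, so only R10 lay under 0.5. The untreated fall at 55.3 kb had no counterpart within 100 kb in R5, R10, the day 28 mean or the mean of days 7 and 14. The tall zone at 261 kb, near TMEM230, was kept in R5, R10 and the day 28 mean.

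EPB41L4A encodes a FERM-domain protein of the cytoskeleton (chromosome 5, 112141829 to 112419935) and lay in a stretch of mostly leftward forks with its nearest zone on the right at 811 kb. Over the left end of the gene (chromosome 5, 112100001 to 112200000) raw polarity was -38.2%, -32.9% and -22.3% untreated, -44.5% and -6.3% at day 7 and -59.9% and -86.4% at day 14. It was -24.96%, -22.6%, -42.6% and -25.5% at day 28, -28.8% in R5 and -46.9% in R10. The sign was the same in all 13 libraries. Scaled, polarity was -32.9 ± 5.96 (SD, n = 3) untreated, -98.1 ± 62.7 (SD, n = 4) at days 7 and 14, and the difference at days 7 and 14 of -66.7 ± 16.3 points (SE) passed (limma adjusted p = 0.033). It was lost without day 7 replicate 1 or either day 14 library. Day 14 alone differed by -111 ± 20.8 points (SE; limma adjusted p = 0.0214) and day 7 alone by -15.1 ± 22.2 (SE; limma adjusted p = 0.876), so the call rested on day 14. In the lead window to the right of the gene (chromosome 5, 112600001 to 112700000) raw polarity was -64.6%, -68.6% and -52.4% untreated, -20.5% and 2.6% at day 7, -6.6% and -0.43% at day 14, -29.6%, -4.1%, -12.2% and -7.2% at day 28, 7.2% in R5 and -22.7% in R10. R5 was positive there and R10 was not, and R5 alone had a gained zone at 461 kb. The difference of 57.2 ± 16.4 points (SE) at days 7 and 14 did not pass (limma adjusted p = 0.0666).

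SLC14A2, which encodes a urea transporter (chromosome 18, 45167963 to 45683688), was, with MSRB3, one of 2 loci where the same zone was called as gained in both resistant lines. It lay at 196 kb, inside the gene, in R5 (position 45363470) and R10 (position 45364239), with heights of 91.6 and 99.6 points in the scaled running mean. Across the R10 zone the raw rise was 33.3, 6.9 and 33.7 points untreated, 47.8 in R5 and 67.9 in R10. It was -20.3 in day 7 replicate 2, -24.7 and 10.2 at day 14 and -40.2, -18.2, 14.7 and -58.3 at day 28; day 7 replicate 1 had no value. Across the R5 zone it was 43.6, -25.1 and 36.5 points untreated, 21.4 in R5 and 44.3 in R10, so there the raw rise of R5 was within the untreated range. At the untreated zone at 650 kb, at EPG5, raw rises were 142.3, 123.2 and 112.9 points untreated, 79.05 and 38.8 at day 7 and 21.2 and 42.4 at day 14. They were 35.7, 51.6 and 17.1 in day 28 replicates 2, 3 and 4, 18.9 in R5 and 26.7 in R10. After scaling this was 0.490 of untreated in R5, 0.308 in R10, 0.746 in the day 28 mean and 0.700 in the mean of days 7 and 14. Day 28 replicate 1 had no value, so the zone is outside the count of reduced zones. It counts as kept in R5, R10 and the day 28 mean. Raw polarity in the SLC14A2 lead window (chromosome 18, 45400001 to 45500000) was -49.5%, -57.3% and -23.02% untreated, 23.3% in R5 and 15.5% in R10. It was -26.98% and -18.1% at day 7, -33.3% and -11.5% at day 14 and -20.7%, -13.8%, 1.1% and 13.6% at day 28, where replicates 1 and 2 were leftward and replicates 3 and 4, with conflicting labels, were not. At days 7 and 14 the difference was 5.2 ± 17.9 points (SE; limma adjusted p = 0.92). The day 28 mean had zones called as gained at 27.8 and 327 kb that neither line had. At 27.8 kb the raw rise was 47.7, 31.6, -6.7 and 65.0 points in day 28 replicates 1 to 4. At 327 kb it was -4.8, -12.7, -7.6 and 89.4, so that zone rested on replicate 4 alone, which has a conflicting label. Only 13 of the 26 windows of this region had a value in all libraries.

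Over whole genes no member passed. Gene polarity, the mean over the 20 kb windows of a gene, had a value in all libraries for 8 of the 10 members (not EFNB2 and UTRN). In limma, scaled and with equal weights, 0 of the 8 passed at day 7 and 0 at day 14, and over the genome 0 of 15667 genes passed (0%). In simulated data this fit recovered 0 of 100 changes of 30 points and 0 of 100 of 60 points, at day 7 and at day 14. It could thus not call changes of the size seen here, and its lack of calls does not show that the genes were unchanged. At an unadjusted p under 0.05 there were 2 members at day 7 (RASSF2 and HERC1) and 3 at day 14 (LAMA4, RASSF2 and EPB41L4A), beside 5.81% and 5.11% of all genes. With array weights 0 members passed either (in the resistant lines 0 members beside 0.0128% of all genes), with 2 and 4 at an unadjusted p under 0.05. The median absolute difference of the 8 was 34.05 points at day 7 and 49.4 at day 14, against 23.9 and 23.4 over all genes tested. Day 14 minus day 7 gave 0 members called, with a median of 25.1 points against 28.3. Of 19 family relatives of the members, such as LAMA2, THRA, RASSF1 and HERC3, 15 were tested and 0 called, with a median of 21.2 points at day 7 and at day 14; 1 of them, SLC14A1, is the neighbour of SLC14A2. Gene polarity at LAMA4 was 32.3, 27.0 and 0.10 points scaled untreated, 30.8 and 94.6 at day 7, and 107 and 81.8 at day 14; at HERC1 it was -17.5, -17.9 and -36.1 untreated, -79.9 and -103 at day 7 and -47.4 and -79.2 at day 14.

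At the scale of 20 kb the regions held 1132 windows, of which 712 had a value in all 13 libraries. Both resistant lines lay outside the untreated range on the same side in 38.2% of these, against 30.6% of 80351 windows over the genome, and the share ran from 25.6% at HERC1 to 60.0% at MSRB3; the resistant lines chose the loci. The median absolute scaled difference at days 7 and 14 was 30.2 points in the regions and 27.1 over the genome, highest at MSRB3 (43.6 points) and lowest at UTRN (23.8).

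Other genes whose raw polarity followed that of a member over the 13 libraries were sought on other chromosomes. The closest was EIF2AK2 for SLC14A2 (Pearson r = 0.982), ATP5F1E for NLRP1 (0.948), IER3 for EPB41L4A (0.946), GCLM for RASSF2 (0.890), ZZZ3 for HERC1 (0.886), SDHA for THRB (0.860), IFNW1 for MSRB3 (0.823) and SUGCT for LAMA4 (0.787). Each is the highest of about 15667 genes over 13 libraries that share their loss of amplitude, so it is a description and no test was made.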

How the data were processed

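Polarity was deposited as a score, 1 column per library and 1 row per 20 kb window stepping by 10 kb: the difference of reads on the 2 strands in percent, read from the values. Per the submitters' processing notes reads went through Trim Galore 0.6.5 and Bowtie2 2.4.1, with GRCh38 and GRCm38 both named; the positions are human, and the sources used here do not give the read minimum, the depth or the strand assignment. A low number of reads in a window widens its polarity, so depth bounds the precision, and no count test or counting interval was possible.

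Every second window was used, so that windows did not overlap (151538, of which 80351 had a value in all 13 libraries). Each library was divided by its slope on the untreated mean, which for an untreated library left that library out. Windows of 100 kb needed 3 of their 5 windows of 20 kb. Gene spans and promoters came from RefSeq, GRCh38.p14. limma 3.58.1 in R 4.3.3 was fitted over all features with Benjamini-Hochberg adjustment; the planned equal weights made no call, so array weights and the contrast of days 7 and 14 were added after the data were seen. The fits and the zone search were tested on simulated data. Members and gene lists were chosen with earlier results of these data known. Named genes were the members, up to 2 family relatives each, the most similar gene on another chromosome, and the genes nearest to altered zones. Alternatives were raw polarity, weights, libraries in the fit, the 2 conflicting labels, the replicate number as a block, window size, missing values, zone thresholds and leaving out each library. Python 3.11.15, numpy 2.4.6, pandas 2.3.3 and matplotlib 3.10.9 were used.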

Additional observations from a re-analysis of the deposited data

Results flagged for a closer look

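In the lead window of EPB41L4A the lowest day 28 library, replicate 1, stood apart: its gap to the next library was 0.879 of the range of the 4, above the 0.829 of Dixon's test. It was 1 of 26 groups of 4 libraries checked, and chance gives about 1 in 20.

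In the lead window of EFNB2 the day 7 libraries lay near the untreated mean and the later ones below it: the mean scaled difference from untreated was 10.1 points at day 7, less than the untreated SD of 27.6 points, against -67.1 at day 14, -81.8 at day 28 and -91.4 in the resistant lines. At SLC14A2 the resistant lines differed from untreated by 97.9 points and the day 7 libraries, near the untreated mean, by -5.98. In both windows every day 7 library lay on the other side of the untreated mean from every library of the groups set against it, which is what drew attention here; the differences were not tested, and none is shown at day 7.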

How the results depend on the processing

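Raw polarity, which keeps the loss of amplitude, gave 5302 genes at day 28, 1122 at day 7 and 450 at day 14 where scaled limma gave 0. For windows of 100 kb with equal weights it gave 1348 in the resistant lines and 9022 at day 28 (0 when scaled), with array weights 5652, 11503 and, at days 7 and 14, 8524, and 9 lead windows. Equal weights gave 0 windows and 0 lead windows; array weights gave 362 and 51 windows and 2 genes in the resistant lines; fitting only the groups compared gave 314 windows and 2 genes there. With day 28 replicates 3 and 4 left out, the day 28 counts were 30 genes and 137 windows with equal weights and 0 windows with array weights, and day 14 minus day 7 gave 1 gene. With them placed at day 7 these were 20, 173, 0 and 1, while days 7 and 14 gave 989 windows and 9 lead windows. With 1 value per group enough, array weights gave 135, 6 and 97 windows and 3 lead windows; windows of 20 kb gave 0, 7 and 0.

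Leaving out each library gave 22 (without R5) to 1770 (without R10) windows in the resistant lines, 0 (without day 28 replicate 3) to 65 at day 28, and 17 (without day 14 replicate 2) to 238 at days 7 and 14, with 0 to 6 lead windows. It gave 0 to 2 genes at day 14 and 0 to 9 in day 14 minus day 7. The resistant count was 115 and 166 without untreated replicates 1 and 2; the day 28 count 4, 7, 33, 11 and 3 without untreated 1 and 2 and day 28 replicates 1, 2 and 4; the count of days 7 and 14 was 131, 151, 94, 113 and 86 without untreated 1 and 2, day 7 replicates 1 and 2 and day 14 replicate 1. Replicate numbers did not pair the libraries: 1 of 13 same-number pairs correlated above 0.1 (-0.0233 to 0.145). The replicate block gave 0 windows at day 28, 119 at days 7 and 14 and 5 lead windows (of the other windows described, EPB41L4A's at the left end of the gene had adjusted p = 0.0551, limma, and was not called), and 0 genes in each of the 4 gene contrasts it could fit; the resistant lines share no number, so it could not be fitted there.

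Zones lost or moved at the loci in R5 were 3 with rises of 30 points, 8 with 60, 8 with a 120 kb mean, 3 (8.97% of all zones) within 200 kb and 26 (72.4%) in raw polarity. In R10 they were 5 within 200 kb, with 28.1% of all zones in raw polarity, and at day 28 they were 26 (73.7%) in raw polarity. Leaving out untreated or day 28 libraries gave 5 to 7, 9 to 10 and 8 to 10. The 6 zones with a reduced rise stayed 6 when an untreated library was left out or at 40%, and were 7 at 60%. The sign turned at SLC14A2 at day 7 with 100 kb either side of the gene (-0.50 points; -3.57 to 11.9 with a library left out), at NLRP1 and EPB41L4A at day 7 in raw polarity (-7.70 and 6.54; NLRP1 -18.1 to 74.4 with a library left out), and in the SLC14A2 lead window with equal weights (-7.46; -14.0 to 14.5). The causes were not tested.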
